A study of Sus scrofa with 6 samples.

Results

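FOXO3 is a forkhead transcription factor that lies downstream of growth factor signalling. When PI3K and AKT are active, AKT phosphorylates FOXO3 and the protein is held in the cytoplasm, whereas in their absence it enters the nucleus and switches on genes of cell cycle arrest, apoptosis, oxidative stress defence and autophagy. In dendritic cells (DC), the antigen-presenting sentinels of the immune system, FOXO3 is known to restrain the production of inflammatory cytokines. The gene is described here in 3 populations sorted from pig blood as candidates for DC subsets, as measured by the 2 probes that the array files name FOXO3. Both carry the prefix SS_NEG in their names, as do the probes for CYP26B1, DMC1, ESR1, ESR2, MAEL, NOBOX, SPO11 and STRA8, and the prefix is read here as marking negatives of the custom design. The FOXO3 probes were picked out because they were bright in spite of that name, so their brightness, their detection and their rank are given as a description without a test. Each probe was printed as 5 spots, which gave 10 FOXO3 spots of 42018 gene spots per array, and 2 of 41910 gene probes. FOXO3 is 1 of 23 genes that the files name by symbol, and nearly all other probes have an ID only. None of the 10 spots carried an outlier flag on any array.

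The samples were RNA from cells sorted by flow cytometry out of blood of untreated pigs of about 2 years of age and both sexes, hybridized one by one to single-colour (Cy3) Agilent porcine arrays, with 2 arrays per subset and 6 arrays in all. Plasmacytoid DC candidates (pDC) were gated as CD3- CD14- CD4+ CD172int. The candidates labelled DC XCR1+ were large cells (FSChi) that were negative for IgL, IgG, IgM, CD4 and CD14, positive for MHC class II and CADM1, and CD172lo. Those labelled DC XCR1- came through the same gates but were CADM1-. The labels give their CD172 level as CD172hi or CD172int, while the study set the CD172int cells aside in its own analyses. The column names of the deposited table call the cells of these arrays SIRP+CADM1-, and SIRPA is CD172A. In its text the study words the cells it kept as CADM1- CD172+, apart from the CD172int cells. The labels alone do not settle whether CD172int cells are among those on these arrays. RNA of different animals was mixed where a sort gave too little. The column names of the deposited table carry a code that is not explained in the sources used here. One code is shared by the second pDC array, the first DC XCR1+ array and the first DC XCR1- array. The first pDC array has another single digit. The second DC XCR1+ and DC XCR1- arrays have codes of 3 and 2 digits, and the longer code holds the digits of the shorter. If the digits stand for animals, the arrays of a subset differ in animal, some were pooled, and arrays of different subsets share animals. No source says so, and the p-values measure only the spread between these arrays, which may be technical. In bulk RNA, a smaller number of expressing cells cannot be told apart from less RNA per cell.

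The subset labels were checked on the 10 of 30 cell type marker genes that the files name. All levels here are log2 of the intensity minus the log2 intensity at the 75th percentile of gene spots on the same array, so that 0 is the level of a probe at that percentile. TCF4, the transcription factor of pDC, was brightest on both pDC arrays (6.96 to 7.21, against 4.06 to 4.46 on the other 4 arrays). XCR1, the chemokine receptor that defines cDC1, lay at 0.47 and 0.54 on the DC XCR1+ arrays and between -6.78 and -5.49 elsewhere, and CADM1, BATF3 and ID2 were also highest on the DC XCR1+ arrays. Of the other cDC1 markers, FLT3 lay between 0.64 and 0.91 on the pDC and DC XCR1+ arrays and at -1.50 and -1.76 in DC XCR1-, and CLEC9A passed the background test on 1 array only, one of pDC. SIRPA, which encodes CD172A, was brightest on the DC XCR1- arrays (0.40 and 0.13). The monocyte genes CD14, a co-receptor for bacterial lipopolysaccharide, and CSF1R, the receptor of the macrophage growth factor, were also highest on the DC XCR1- arrays (1.90 and 3.26 for CD14, 3.68 and 3.49 for CSF1R). Those 2 were all the monocyte and macrophage markers named of 4, and the name DC XCR1- is used below for the sort and not as a cell type. No marker of B, T or NK cells, neutrophils or erythroid cells was named. Between 54.3% and 64.1% of gene spots per array were well above background by the scanner software's test, and no gene spot was saturated.

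The sequences of the FOXO3 probes show which 60-base stretches were measured. The probe called probe 1 below is SS_NEG_ENSSSCG4387_1, and probe 2 is SS_NEG_ENSSSCG4387_2. Another probe, A_72_P375183, has no gene name in the files and was found by comparing the FOXO3 probes with every other gene probe. It is shown because it repeats most of probe 2. Capitals mark the run of 56 bases that probe 2 and A_72_P375183 share without a break.
SS_NEG_ENSSSCG4387_1: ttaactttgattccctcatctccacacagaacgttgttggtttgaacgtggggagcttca
SS_NEG_ENSSSCG4387_2: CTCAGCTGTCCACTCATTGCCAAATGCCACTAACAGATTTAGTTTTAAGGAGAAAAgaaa
A_72_P375183: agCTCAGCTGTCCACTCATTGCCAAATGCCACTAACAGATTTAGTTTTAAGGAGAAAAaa
The shared run covered bases 1 to 56 of probe 2 and bases 3 to 58 of A_72_P375183, counted from the 5′ end. Of the 58 bases at which they can be laid over each other, 57 were identical, and the remaining one was the substitution G57A, with the base of probe 2 first and its position counted in probe 2. The longest run that probe 1 and probe 2 share in the same orientation was 5 bases in a row. Apart from A_72_P375183, no other gene probe shared more than 17 bases in a row with probe 2 or more than 15 with probe 1, in either orientation. G and C made up 45.0% of probe 1 and 38.3% of probe 2, within the range of 35.0% to 55.0% of the other negative probes, and the median over all gene probes was 41.7%. The number in the probe names is a shortened pig Ensembl gene ID. Filled up with zeros to full length, it is FOXO3 in the table of pig gene names, and of the 27 probes that the files name by symbol 16 could be looked up in that way, all with the same symbol. No genome position was assigned to these probes, since the files give none.

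All FOXO3 spots gave signal on all arrays. Each of the 5 spots of probe 1 and each of the 5 spots of probe 2 was well above background on each of the 6 arrays, which made 60 of 60 readings. The mean processed intensity of probe 1 was 397 and 313 in pDC, 262 and 222 in DC XCR1+ and 563 and 467 in DC XCR1-. That of probe 2 was 3766 and 3869 in pDC, 3270.0 and 2209 in DC XCR1+ and 6279 and 5549.9 in DC XCR1-. The dimmest single FOXO3 spot of any array was one of probe 1, at 200 on the second DC XCR1+ array, and the dimmest spot of probe 2 was at 2109. In comparison, the 153 Agilent negative control spots of an array had a median intensity of 1.60 to 3.73 and reached at most 45.8, and 8 of their 918 readings were called well above background.

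The other 10 negative probes, 5 spots each for 8 genes of the germ line, meiosis and steroid or retinoid signalling, were dim. Their mean intensity lay between 1.55 and 52.7, and 40 of 264 readings were well above background after 6 of their spots with an outlier flag were left out. There was no overlap with FOXO3, whose dimmest probe mean was 222. The probes for CYP26B1 (levels of -7.18 to -6.20), ESR1 (-7.36 to -6.16), ESR2 (-7.59 to -6.17), MAEL (-7.67 to -6.27) and SPO11 (-7.66 to -6.13) had no spot above background on any array. NOBOX, an oocyte transcription factor, lay between -4.34 and -3.82 with 20 of 24 readings above background. STRA8, a gene induced at the onset of meiosis, reached -4.15 on 1 array, the only one with all its spots above background (5 of 30 readings in all). The 2 probes of DMC1, the meiotic recombinase, spanned -7.08 to -2.59 and were brightest on the first DC XCR1+ array, with 11 and 4 of 24 readings each above background.

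**Figure D1:**
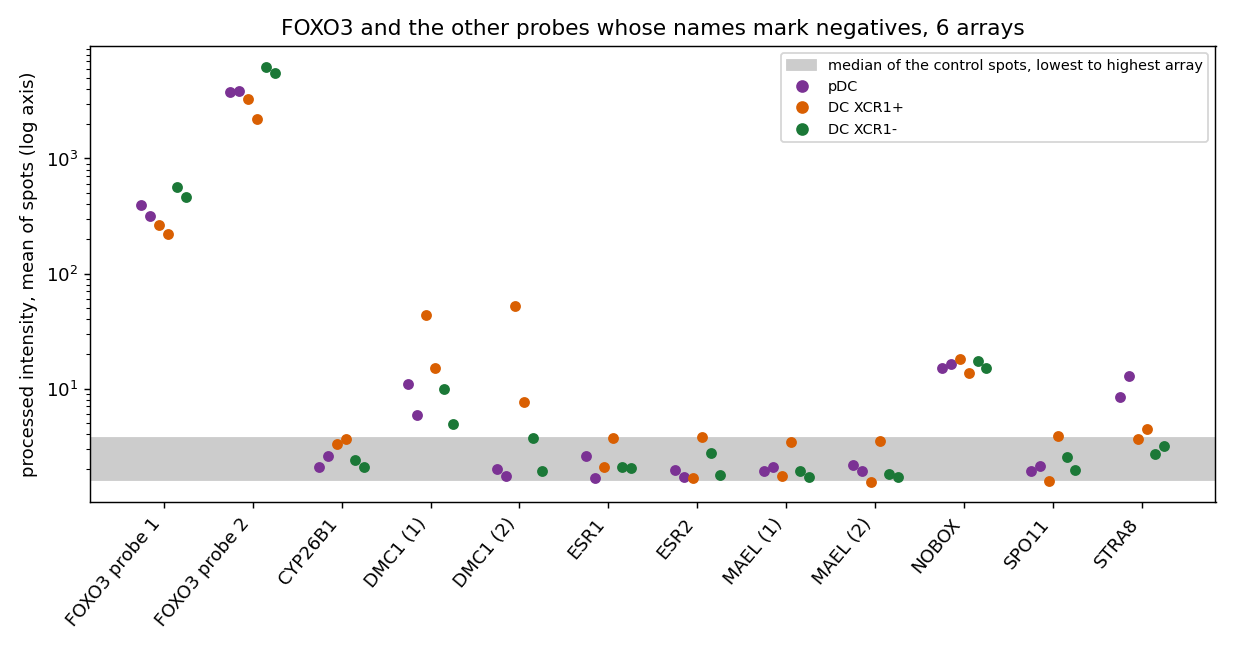
Mean processed intensity (arbitrary units, log axis) of each probe whose name marks a negative, with 1 point per array coloured by subset and the grey band spanning the lowest to the highest array median of the Agilent control spots. Both FOXO3 probes lie at 222 or above on all 6 arrays, and no other probe exceeds 52.7.

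Among all 41901 gene probes left after flagged spots were removed, probe 2 ranked between place 1967 and place 3805 from the brightest, so that 90.9% to 95.3% of probes were dimmer on the 6 arrays. Probe 1 had 73.1% to 81.0% of probes below it. Counted only among the 20787 probes that were well above background on all 6 arrays, probe 2 had 81.7% to 90.5% and probe 1 46.5% to 62.1% of probes below it. The brightness of a probe depends on its sequence as well as on the transcript, so the places of both probes are places of probes and not of transcripts.

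The level of FOXO3 followed the same order in both probes, from DC XCR1- over pDC to DC XCR1+. For probe 2 the levels were 4.25 and 4.56 in DC XCR1- (mean 4.41 ± 0.22 SD, n = 2), 3.81 and 4.09 in pDC (3.95 ± 0.19, n = 2) and 3.37 and 3.05 in DC XCR1+ (3.21 ± 0.23, n = 2). No array of one subset reached into the range of another. With 2 arrays per subset, subsets can lie apart in this way without a difference between them. The share of all probes for which they did was not counted. For probe 1 they were 0.77 and 1.00 in DC XCR1- (0.88 ± 0.16, n = 2), 0.56 and 0.46 in pDC (0.51 ± 0.07, n = 2) and -0.27 on both arrays of DC XCR1+ (-0.27 ± 0.0007, n = 2). The subsets were separate here as well. The unnamed probe A_72_P375183, with 1 spot, gave 4.47 and 4.84 in DC XCR1-, 4.03 and 4.29 in pDC and 3.56 and 3.26 in DC XCR1+, all 6 readings well above background. It repeats the sequence of probe 2 and is no further piece of the transcript.

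**Figure D2:**
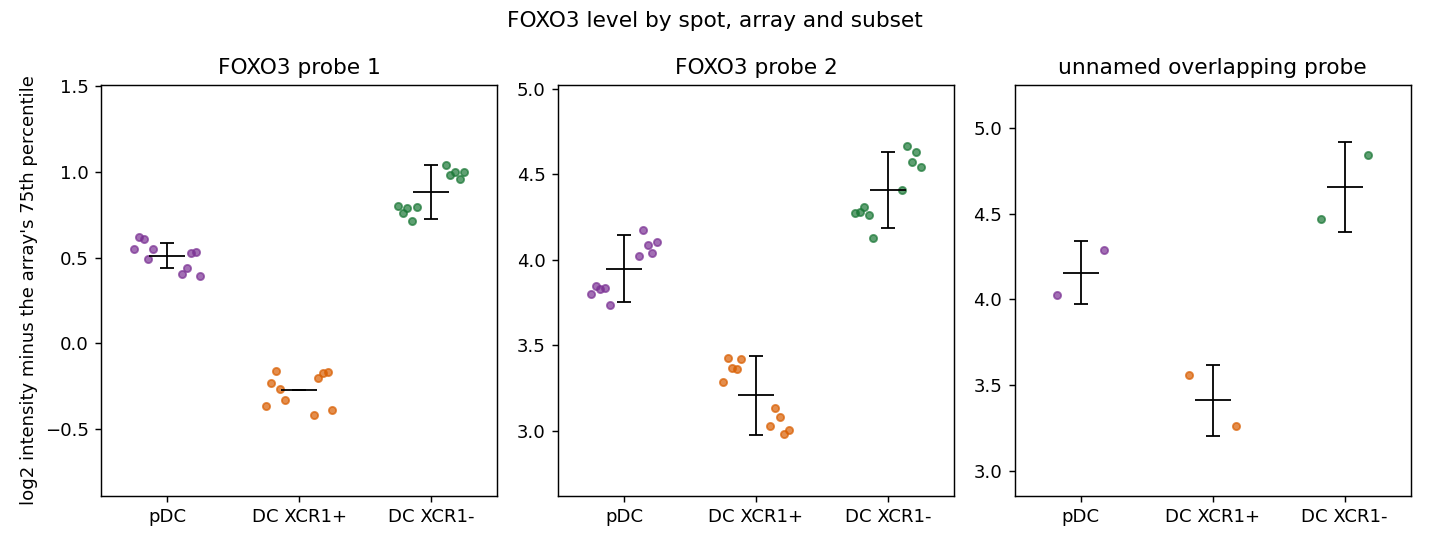
FOXO3 level (log2 intensity minus the 75th percentile of the array) in pDC, DC XCR1+ and DC XCR1-, in 1 panel per probe with equal axis spans. Points are single spots, grouped by array, and bars are the mean ± SD of 2 arrays. All 3 panels show DC XCR1- on top and DC XCR1+ at the bottom.

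The spots of a probe repeated each other closely. The SD of the 5 spots within an array was 0.03 to 0.12 log2 units for probe 1 and 0.04 to 0.10 for probe 2, which is a coefficient of variation of 2.02% to 8.42% and 2.99% to 6.68%. For probe 2 the SD between the 2 arrays of a subset (0.19 to 0.23) was larger than that between spots. For probe 1 it ran from 0.0007 to 0.16, and the lowest of these is below the spread of the spots. Spots of 1 array share their RNA and were averaged, not counted as replicates. Probe 2 exceeded probe 1 by 3.25 to 3.64 log2 units on the 6 arrays, so the gap between the probes varied by less than the levels did, and it did not follow the subsets (3.25 and 3.63 in pDC, 3.64 and 3.32 in DC XCR1+, 3.48 and 3.57 in DC XCR1-). A_72_P375183 exceeded probe 2 by 0.19 to 0.28.

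FOXO3 was lower in DC XCR1+ than in DC XCR1-. Probe 2, the brighter one and the one taken to stand for the gene, had a difference of -1.20 log2 units (SE 0.26, 95% interval -1.84 to -0.56), which is 2.29-fold, with a limma adjusted p of 0.0297 over all 26372 probes tested. In this comparison 16.1% of tested probes had an adjusted p under 0.05, and 18.5% had a larger difference in either direction, so a difference of this size was not rare. Probe 1 gave -1.16 (SE 0.23, limma adjusted p = 0.0208) and A_72_P375183 gave -1.25 (limma adjusted p = 0.0267). The lowest DC XCR1- array exceeded the highest DC XCR1+ array 1.84-fold for probe 2 and 2.06-fold for probe 1. The study's methods build pig signatures on this ratio of the minimum in a test group over the maximum in a reference group. They take a gene from 1-fold on, that is, where the groups do not overlap. There a cell type is set against all other cell types studied in the species, or selected ones, and only genes shared between species are kept. The ratio here is for 1 pair of subsets and does not make FOXO3 a signature gene. The call of probe 2 did not hold without any 1 of the 4 arrays of these subsets (differences of -1.36 to -1.04, limma adjusted p of 0.0849 to 0.203), and neither did that of probe 1 (limma adjusted p of 0.0995 to 0.163). The call of A_72_P375183 did not hold in these fits either (differences of -1.43 to -1.06). Without the filter on dim probes, the calls of probe 1 and A_72_P375183 were lost (limma adjusted p = 0.0824 and 0.0903). That of probe 2 was lost as well (limma adjusted p = 0.0987). Nor did the call of probe 2 hold with the day of the scan as a block, where the difference was -0.88 (limma adjusted p = 0.791). This difference came from 1 array of each subset, since the second DC XCR1+ and the second DC XCR1- array were each scanned on a day of their own. The calls of probe 1 and A_72_P375183 were lost with this block too (differences of -1.04 and -0.91).

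CD14 and CSF1R, the monocyte markers, were also lower in DC XCR1+ than in DC XCR1- (differences of -4.83 and -6.87, limma adjusted p = 0.00755 and 0.000736). They were lower in pDC too (-4.28 and -7.30 against DC XCR1-, limma adjusted p = 0.00621 and 0.000273). The 2 pDC arrays differed, with CD14 at -0.73 on the first and -2.66 on the second, and CSF1R at -2.95 and -4.48. On the DC XCR1+ arrays CD14 lay at -2.47 and -2.03 and CSF1R at -3.32 and -3.25. The differences between these subsets were 0.56 and -0.43 and did not pass (limma adjusted p = 0.591 and 0.543). The part of monocyte-like cells in the FOXO3 levels was not tested.

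pDC stood between the other subsets. Against DC XCR1+, probe 2 was 0.74 log2 units higher in pDC (SE 0.26, 95% interval 0.10 to 1.38, 1.67-fold) and did not pass the test, with a limma adjusted p of 0.0839 in a comparison in which 28.8% of probes passed. Probe 1 was 0.78 higher (SE 0.23, 95% interval 0.23 to 1.34) and passed, with a limma adjusted p of 0.0474. This call of probe 1 was lost with the replicate number as a block (limma adjusted p = 0.0611), without the filter on dim probes (0.147), with scan day as a block (0.446) and in 5 of 6 fits that leave out 1 array (0.0635 to 0.196). A_72_P375183 was 0.75 higher and did not pass (limma adjusted p = 0.0830). The difference of probe 2 passed with another background correction, with the authors' deposited values and with a prior that follows brightness (limma adjusted p = 0.0293, 0.0369 and 0.0475), so the side of the threshold on which it fell changed with the setting while its size stayed between 0.58 and 0.82 in the 15 alternatives other than those that leave out an array. Within the slide that held an array of both subsets the difference was 0.71 for probe 2 and 0.73 for probe 1. The lowest pDC array exceeded the highest DC XCR1+ array 1.36-fold for probe 2 and 1.66-fold for probe 1.

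Against DC XCR1-, probe 2 was 0.46 log2 units lower in pDC, with a 95% interval of -1.10 to 0.18 that includes 0 and a limma adjusted p of 0.233, where 32.7% of probes passed. Probe 1 differed by -0.37 (95% interval -0.93 to 0.18, limma adjusted p = 0.259) and A_72_P375183 by -0.50 (limma adjusted p = 0.201). None of the 3 passed, and none of the alternative settings run for probe 2 gave a call, with adjusted p-values of 0.120 and above. The lowest DC XCR1- array exceeded the highest pDC array 1.12-fold for probe 2 and 1.15-fold for probe 1. These groups did not overlap either, although none of the 3 differences passed. On the slide that held both, probe 2 differed by -0.44 and probe 1 by -0.21. Between the arrays that share a code, probe 2 differed by -0.16 and probe 1 by -0.31.

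**Figure D3:**
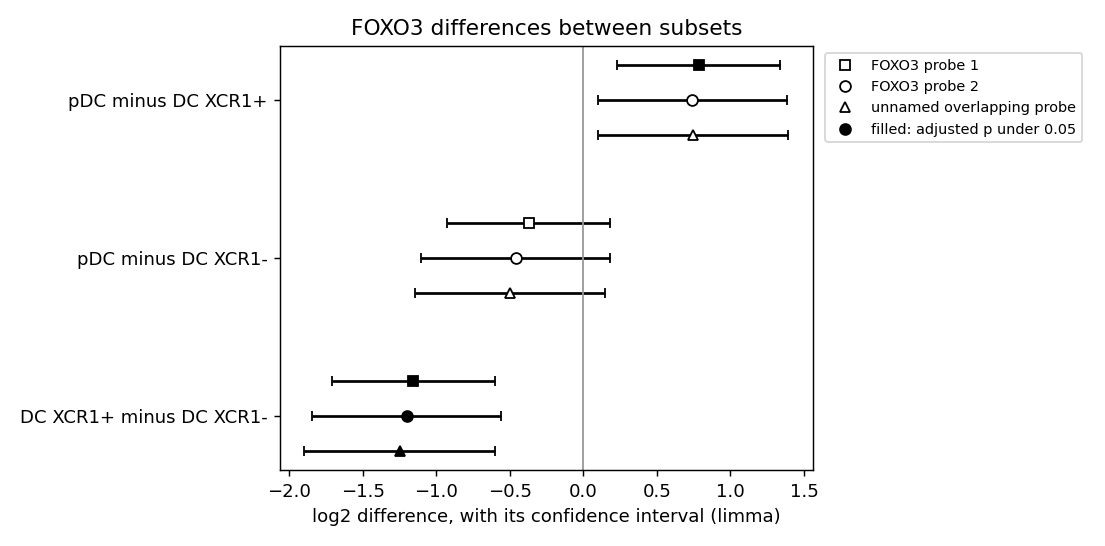
Log2 difference of FOXO3 level between subsets with its 95% interval from limma, for probe 1 (squares), probe 2 (circles) and A_72_P375183 (triangles), filled where the adjusted p is under 0.05. All 3 probes pass in DC XCR1+ minus DC XCR1- (-1.16 to -1.25), probe 1 alone passes in pDC minus DC XCR1+, and none passes in pDC minus DC XCR1-.

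The median difference over all tested probes was 0.03 in pDC minus DC XCR1+, 0.07 in pDC minus DC XCR1- and 0.05 in DC XCR1+ minus DC XCR1-. Relative to these medians, probe 2 differed by 0.71, -0.53 and -1.24. In each comparison the order of FOXO3 kept its direction in all 21 alternative settings tested for it. For many of them this was fixed beforehand. The fits without a filter, with a trend in the prior, with the replicate block or with only the arrays of both subsets leave the estimate unchanged. Leaving out 1 array cannot reverse subsets that do not overlap.

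**Figure D4:**
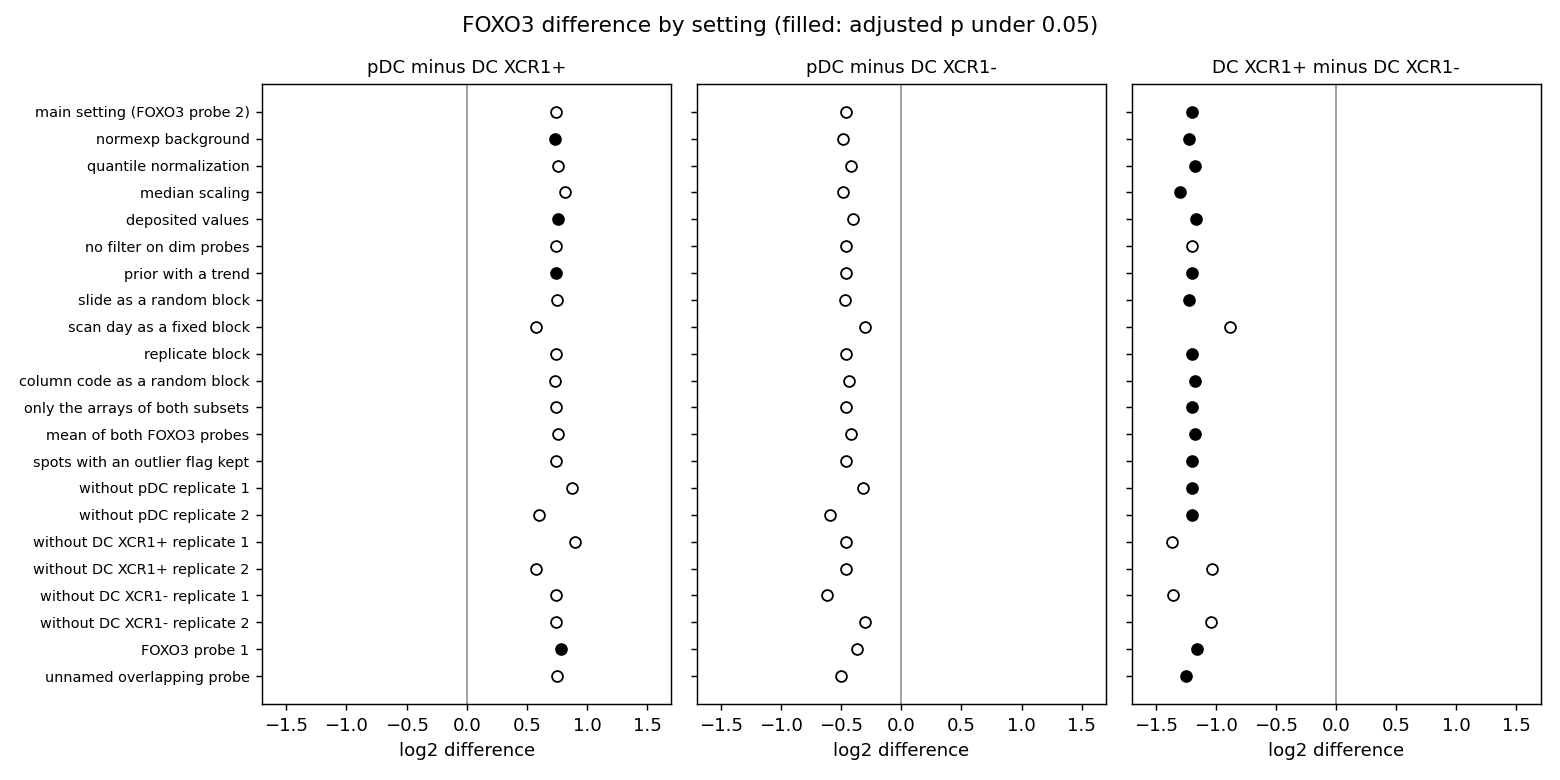
Log2 difference of FOXO3 for each comparison (1 panel each) under the main setting and 21 alternatives, filled where the limma adjusted p is under 0.05. No point crosses 0. The calls in the right panel are lost without a filter on dim probes, with scan day as a block and without any 1 of the 4 DC XCR1+ or DC XCR1- arrays.

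The probe with a profile most like that of probe 2 over the 6 arrays was A_72_P375183 (Pearson r = 0.999), as a description over 20786 probes that were well above background on all arrays. A_72_P646231 followed (r = 0.992), an unnamed probe with levels of -0.05 and 0.16 in pDC, -0.35 and -0.67 in DC XCR1+ and 0.15 and 0.42 in DC XCR1-. Probe 1 came at place 82 with r = 0.956, and 375 probes (1.80%) had r over 0.9. All probes were read on the same 6 arrays of 3 subsets, and the values carry no p. Of the 8 other genes named by symbol and detected on all arrays, CD14 (r = 0.757), CSF1R (r = 0.693) and UNC93B1 (r = 0.541) came nearest to probe 2. UNC93B1 carries the nucleic acid sensing Toll-like receptors to endosomes, and it differed from FOXO3 in order, with its highest levels in pDC (3.13 and 3.35).

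Of 51 genes of the FOXO family, its regulators, partners and targets, the files name FOXO3 and TNF only. TNF, an inflammatory cytokine, lay at 5.97 and 8.09 in pDC, -0.89 and 0.06 in DC XCR1+ and 1.10 and 1.41 in DC XCR1-. It was higher in pDC than in DC XCR1+ (7.45 log2 units, limma adjusted p = 0.00107) and than in DC XCR1- (5.77, limma adjusted p = 0.00191). Its difference between DC XCR1+ and DC XCR1- was -1.67 and did not pass (limma adjusted p = 0.177). The highest level of TNF was in pDC and that of FOXO3 in DC XCR1-. The AKT and PI3K genes that act on the FOXO3 protein and its targets in arrest and apoptosis, such as CDKN1B and BCL2L11, are not named by the files and were not analysed here. The arrays measure RNA, and give no value for the phosphorylation or location of the protein.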

How the data were processed

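The authors sorted the cells, amplified and Cy3-labelled the RNA, and extracted array images with Agilent Feature Extraction 10.7.3.1. The deposited scanner files give the processed intensity of each spot, background-subtracted by that software. A deposited table of log2 values holds the authors' normalized values of the same spots, whose normalization method is not given in the sources used here, with limma named in the processing notes. Its 5 columns of other samples were not used. Levels were computed as log2 intensity minus the log2 intensity at the 75th percentile of each array and averaged over the spots of a probe. Before that, 19 gene spots that the software had flagged as outliers somewhere were removed. A probe was tested if some subset had it well above background on both its arrays, which left 26372 of 41901 probes. Differences were tested with limma 3.58.1 (R 4.3.3; lmFit and eBayes, all 6 arrays, 3 residual degrees of freedom) and Benjamini-Hochberg adjustment over all probes tested, at 0.05. The brightest FOXO3 probe stood for the gene. Named genes were FOXO3, the other negatives, the 3 named genes and 2 probes with the most similar profile, and named members of the FOXO and cell type lists. The members and lists were chosen with earlier results of these data known. The tests were checked on simulated data with 200 planted changes per comparison. In pDC minus DC XCR1+, pDC minus DC XCR1- and DC XCR1+ minus DC XCR1-, 55, 51 and 64 of these were called. Among the unchanged probes 0, 3 and 2 were called. Most planted changes were thus missed, and a difference that did not pass is not shown to be absent. The number of arrays limits the precision. Sequences are those of the array design in the deposited files.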

Additional observations from a re-analysis of the deposited data

How the results depend on the processing

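With 2 arrays per subset, no call rests on more than 3 residual degrees of freedom. All FOXO3 differences kept their direction in every alternative run, and the ratios of lowest over highest array kept theirs in the 4 tried. Many of these runs could not have changed the direction, since they leave the estimate as it was or leave out 1 array of subsets that do not overlap. FOXO3 in pDC minus DC XCR1+ (0.74, adjusted p = 0.0839) passed with normexp background (0.74, adjusted p = 0.0293), deposited values (0.76, 0.0369), a prior with a trend (0.74, 0.0475) and, chosen after seeing the data, FOXO3 probe 1 (0.78, 0.0474). FOXO3 in DC XCR1+ minus DC XCR1- (-1.20, adjusted p = 0.0297) did not pass without a filter on dim probes (-1.20, adjusted p = 0.0987), where more probes are tested, or with scan day as a fixed block (-0.88, adjusted p = 0.791), which equals the value within scan day 1 (-0.88, no test). Leaving out 1 array at a time gave -1.36 to -1.04 there, 0.58 to 0.90 in pDC minus DC XCR1+ and -0.62 to -0.30 in pDC minus DC XCR1-. A lone array is then assumed to vary like the other subsets. With the replicate number as a block, the differences stayed at 0.74, -0.46 and -1.20 (adjusted p = 0.103, 0.249 and 0.0462), and no call of probe 2 changed, while probe 1 in pDC minus DC XCR1+ no longer passed (0.78, adjusted p = 0.0611). Same-numbered arrays deviated together with r = 0.04, 0.09 and 0.27, and the numbers were not taken as pairs. In the block on the code of the deposited column names, codes with digits in common counted as different. With this code as a random block, chosen after seeing the data, the differences were 0.74, -0.44 and -1.17 (adjusted p = 0.0751, 0.236 and 0.0271). Between the arrays that share a code they were 0.71, -0.16 and -0.88, with no test. Probes called numbered 7597, 8615 and 4239 in pDC against DC XCR1+, pDC against DC XCR1- and DC XCR1+ against DC XCR1-. They fell to 1979, 2856 and 592 with scan day as a block. Without a filter on dim probes they were 4371 in the comparison of pDC with DC XCR1+ and 2335 in that of DC XCR1+ with DC XCR1-. Leaving out 1 array gave 3968 to 8973, 4236 to 10383 and 1475 to 6129. The cause of these changes was not tested. The level of probe 2 in pDC, DC XCR1+ and DC XCR1- (3.95, 3.21 and 4.41) was 3.62, 2.88 and 4.10 with normexp, 7.42, 6.61 and 7.91 with median scaling, 3.73, 2.97 and 4.14 in the deposited values, and 2.23, 1.47 and 2.64 as the mean of both probes. The percentage of probes below it (93.9, 91.4 and 94.98) was 87.7, 82.7 and 89.9 among probes well above background on all arrays, and in pDC 93.8 with normexp or the deposited values.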
